A study of Mus musculus with 12 samples.

Results

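The liver makes most of the complement and clotting proteins that circulate in plasma, and 43 of their genes were followed here in mouse livers at 3 ages. The 43 were taken from a fixed list of names, 20 of complement and 23 of coagulation, among the 53465 genes of the count table, and all 43 were found under their symbols. Livers of C57BL/6N mice were sampled at 3 months of age (called young), at 12 months (middle-aged) and at 18 months (aged). Each age had 4 livers, and each liver was taken as 1 animal. No treatment or genetic change was labelled. The study's methods state that its mice were male and fed a standard diet without restriction. How RNA of these 12 livers was prepared is uncertain, since the methods describe extraction from young and old livers alone and credit a public resource for liver transcriptomes at 3 ages. Counts assigned to genes ranged from 8124312 to 10527159 per liver. The floor of 3 counts was then between 0.285 and 0.369 CPM (counts scaled to the same library total). Hepatocyte markers, 9 of 10 of which were matched, summed to between 86930.5 and 114121.4 CPM in every liver, whereas platelet and lymphocyte markers summed to at most 17.8 and 26.2 CPM. No 2 livers of an age agreed within sampling noise.

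Complement is a cascade of plasma proteases and binding proteins that marks targets and ends in the membrane attack complex, a pore built from C5b, C6, C7, C8 and C9. Coagulation is a cascade of proteases that ends with thrombin cutting fibrinogen to fibrin, held in check by inhibitors such as antithrombin and undone by plasmin. Hepatocytes secrete nearly all of these proteins, several of them as acute phase reactants that respond to interleukin-6, and factors such as HNF1, HNF4 and C/EBP bind their promoters.

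Among the 43 genes, 10 passed the 5% false discovery rate threshold of DESeq2 in at least 1 of 4 tests. Of these 10, 5 were of complement and 5 of coagulation. Over all genes tested, the single tests called between 1.14% and 6.96%, and the share called in any of the 4 was not taken. The transcripts of C6, C8b and C9, which encode parts of the membrane attack complex, and of F11, which encodes clotting factor XI, were lower in aged than in young livers, to between 0.542 and 0.603 times the young level. The 3 fibrinogen chains shared another course, with the lowest mean levels at 12 months. Their fall from 3 months lay mainly in replicates 1 and 2. The other 33 genes passed no test, and 27 of these 33 had an absolute log2 fold change under 0.25 between aged and young livers. With edgeR's quasi-likelihood test the number of genes called among the 43 was 1 (C8b) for either older age against young, so most calls rest on the choice of test. C8b at 18 months was also called by limma voom, whereas at 12 months it was not (voom adjusted p = 0.0724).

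The promoters of the 7 genes that these courses turn on are shown because their transcripts followed the courses described above. Each sequence is the 150 bases before the RefSeq transcription start, 5′ to 3′ on the gene's strand, from RefSeq in build GRCm38.p6. The GENCODE M21 annotation starts C6, C9 and Fga further upstream, inside the stretch shown. C6 lies at chr15:4727060-4727209 on the plus strand, C8b at chr4:104766167-104766316 on the plus strand, C9 at chr15:6445196-6445345 on the plus strand and F11 at chr8:45262032-45262181 on the minus strand. Fga lies at chr3:83026003-83026152 on the plus strand, Fgb at chr3:83049864-83050013 on the minus strand and Fgg at chr3:83007574-83007723 on the plus strand. Capitals mark matches on either strand to an HNF1 core (GTTAAT), a C/EBP core (TTNNGCAA) or an interleukin-6 response core (CTGGGAA).
C6: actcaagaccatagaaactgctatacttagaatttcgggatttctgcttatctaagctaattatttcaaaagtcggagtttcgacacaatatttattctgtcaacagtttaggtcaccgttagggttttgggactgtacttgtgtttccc
C8b: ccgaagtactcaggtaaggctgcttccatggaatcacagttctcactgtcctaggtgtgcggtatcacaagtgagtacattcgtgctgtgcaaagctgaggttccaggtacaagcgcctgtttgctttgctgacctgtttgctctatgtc
C9: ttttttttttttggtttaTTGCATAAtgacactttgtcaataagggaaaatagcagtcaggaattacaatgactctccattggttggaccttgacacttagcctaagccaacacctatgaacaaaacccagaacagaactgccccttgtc
F11: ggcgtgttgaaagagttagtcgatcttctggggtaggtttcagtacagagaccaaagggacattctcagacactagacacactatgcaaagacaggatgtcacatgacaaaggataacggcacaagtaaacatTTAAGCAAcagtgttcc
Fga: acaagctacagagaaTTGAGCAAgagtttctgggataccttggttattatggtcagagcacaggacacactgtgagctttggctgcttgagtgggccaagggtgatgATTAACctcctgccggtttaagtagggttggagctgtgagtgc
Fgb: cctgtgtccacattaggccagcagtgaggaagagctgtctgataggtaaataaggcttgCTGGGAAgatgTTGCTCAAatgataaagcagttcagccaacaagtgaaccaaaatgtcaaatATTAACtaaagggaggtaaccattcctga
Fgg: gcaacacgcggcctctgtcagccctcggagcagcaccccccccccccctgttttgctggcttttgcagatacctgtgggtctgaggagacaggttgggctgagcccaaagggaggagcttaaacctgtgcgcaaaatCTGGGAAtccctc

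The stretches of Fga and Fgb held both the HNF1 core and the C/EBP core, those of C9 and F11 held the C/EBP core alone, and those of Fgb and Fgg held the interleukin-6 core, and no marked matches overlapped. None of the letters searched occurred in the stretches of C6 and C8b. Over the 34 members with a promoter in the table, the HNF1 core was present in 7, against 3.76% of 27025 promoters of the same length. The C/EBP core was present in 8 of 34, against 5.48% of promoters, and the interleukin-6 core in 5 of 34, against 5.54%. A STAT core (TTCNNNGAA) was present in 3 of 34, against 4.17%, and an HNF4 core (CAAAGTCCA) in 0 of 34, against 0.27%. The motifs were chosen with the sequences in view, and a match is a description of letters, not of a bound site.

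The levels of the 43 genes, as size-normalised counts per kilobase of exons averaged over 12 livers, spanned from 16661 for Fgg to 3.57 for Cfb. The 3 fibrinogen chains led the order, with 16661 ± 2741 (SD, n = 12) for Fgg, 14713 ± 2819 for Fga and 13167 ± 2188 for Fgb. They were followed by C3, the central component of complement, at 11645 ± 2500 and by Vtn, which encodes vitronectin, a plasma protein that binds the membrane attack complex, at 10658 ± 1047. The ranges of these 5 genes overlapped one another in order, and the range of Vtn, from 8975 to 12810, lay above that of the next gene, Kng1, which reached 7122.

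At the other end, Pros1 (protein S, the cofactor of activated protein C) had 119.6 ± 13.9 counts per kilobase, C2 (a protease of the classical and lectin convertases) 78.9 ± 16.1 and Masp1 (a protease of the lectin pathway) 50.5 ± 9.99. Cfb, the protease of the alternative pathway convertase, had between 2 and 18 raw counts in a liver, and DESeq2 gave it no adjusted p at 12 months or between 18 and 12 months. Of its exonic bases, 79.5% are also exon of the gene Gm20547 on the same strand, as are 42.8% of those of C2, so the counts of Cfb and C2 depend on how shared reads were assigned. The spread across the 12 livers was widest, besides Cfb (coefficient of variation 40.0%), for C8b (37.1%), C6 (33.9%), C9 (32.4%) and F11 (29.7%), and was 5.3% for Serpind1, which encodes heparin cofactor II.

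**Figure D1:**
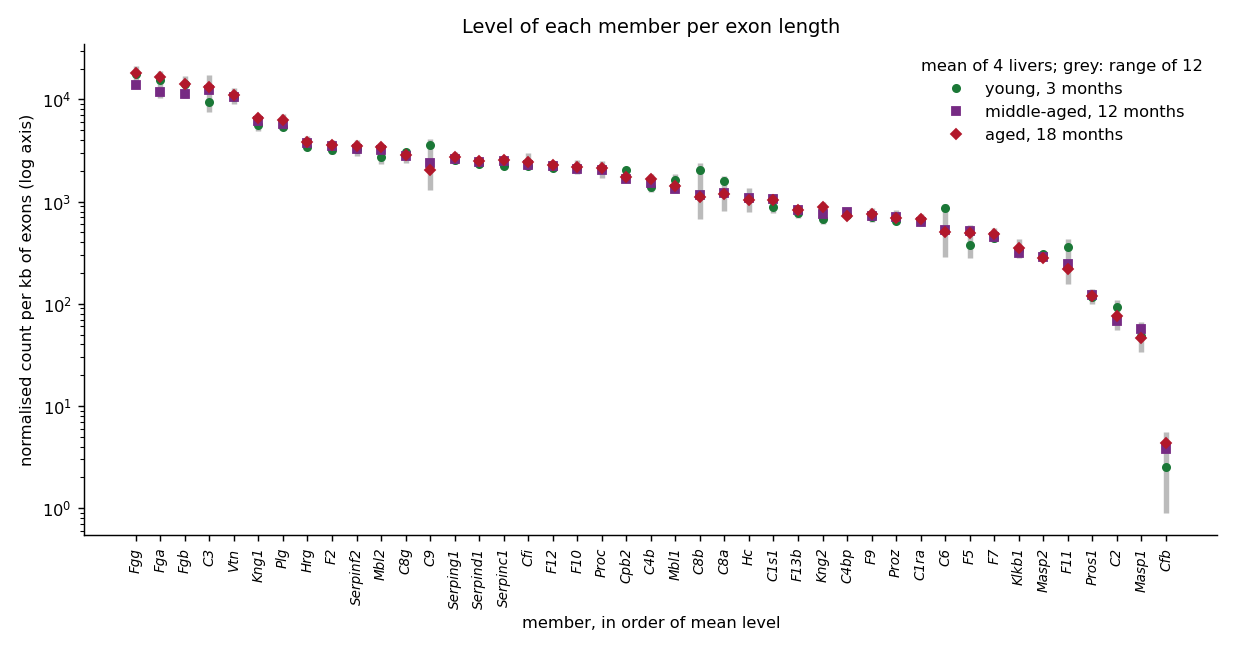
Size-normalised counts per kilobase of exons (log axis) for the 43 members in order of mean level, with the mean of 4 livers at each age as points and the range over 12 livers as grey bars. The 3 fibrinogen chains lie at the top and Cfb, at 3.57, stands alone at the bottom, and the young means of C9, C8b, C6 and F11 lie above their older means.

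The 43 genes together took 4.05% ± 0.21 (SD, n = 4) of gene counts in young livers, 4.24% ± 0.22 in middle-aged and 4.74% ± 0.50 in aged livers. Complement genes took 1.41% ± 0.12, 1.61% ± 0.13 and 1.67% ± 0.27, and coagulation genes 2.64% ± 0.17, 2.63% ± 0.10 and 3.07% ± 0.24, in the same order of ages. Mitochondrially encoded transcripts took 19.2% of gene counts in young replicate 2 and between 5.48 and 10.68% in the other livers. Of the counts left without them, the share of the 43 genes was 4.60% at 3 months, 4.58% at 12 months and 5.06% at 18 months, which reverses the order of the young and middle-aged means.

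Between aged and young livers, 7 of the 43 genes were called at a DESeq2 adjusted p under 0.05, against 3.58% of the 13527 genes tested; 5 of the 7 were lower (background 1.71%) and 2 higher (background 1.87%). All 43 were tested, 18 had an unadjusted p under 0.05, and edgeR called 1 (background 1.42%). Between middle-aged and young livers, 6 of 42 tested genes were called (background 6.41%), 5 of them lower (2.90%) and 1 higher (3.51%), and edgeR called 1 (2.31%). Between aged and middle-aged livers, 1 of 42 was called by DESeq2, and it was higher (background 1.14% in either direction and 0.537% higher). There edgeR called 0 (0.107%), with 4 genes at an unadjusted p under 0.05 in either tool. Leaving out 1 liver moved the count for aged against young to between 2 (without young replicate 2) and 10 (without aged replicate 1), and C8b kept its call in all 12 such fits at both older ages, as did Cpb2 at 12 months. The likelihood ratio test across the 3 ages called 8 of 43 (6.96%), and edgeR's test across the ages called 1 (1.93%). Aged and middle-aged livers were compared with the same 4 young livers, so these comparisons are not independent of each other.

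Individual livers of 2 ages did not overlap for 7 of 43 genes between aged and young (background 7.53%), 12 of 42 between middle-aged and young (16.0%) and 3 of 42 between aged and middle-aged (6.55%). The 3 genes of the last count were the fibrinogen chains.

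Against young livers, the median of the complement genes lay below that of the coagulation genes. The median log2 fold change between aged and young was -0.041 over 20 complement genes and 0.099 over 23 coagulation genes, a difference of -0.14, beside a median of -0.0003 over all genes tested. By role, the complement medians between aged and young were -0.59 for membrane attack, 0.37 for convertase, 0.086 for inhibitor and 0.0021 for initiation genes. The coagulation roles had medians from 0.086 to 0.14. Of the complement roles, membrane attack alone had a median below 0 at both older ages. Between middle-aged and young livers the medians were -0.012 over 19 complement genes and 0.057 over 23 coagulation genes, a difference of -0.069. Between aged and middle-aged livers they were 0.040 and 0.0685. In single livers, the complement median minus the coagulation median of log2 counts centred per gene had an SD of 0.050 within an age. That is a spread between single livers, not the error of the differences above. The difference between aged and young lay from -0.16 to -0.075 in 22 alternatives. Of the coagulation genes 21 of 23 lay above 0 between aged and young livers, as did 9 of 20 complement genes, beside 6755 of 13527 of all genes. Not all of these signs held in both pairs of replicates. Of the coagulation genes above 0, F7, F10, F12, Proc, Proz, Serpinf2 and the 3 fibrinogen chains had opposite signs in the 2 pairs. F7 was near 0 (-0.0001) in replicates 3 and 4. Proc had 0.22 in replicates 1 and 2 and -0.14 in replicates 3 and 4, Serpinf2 had 0.23 and -0.066, and Fga had -0.044 and 0.27.

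**Figure D2:**
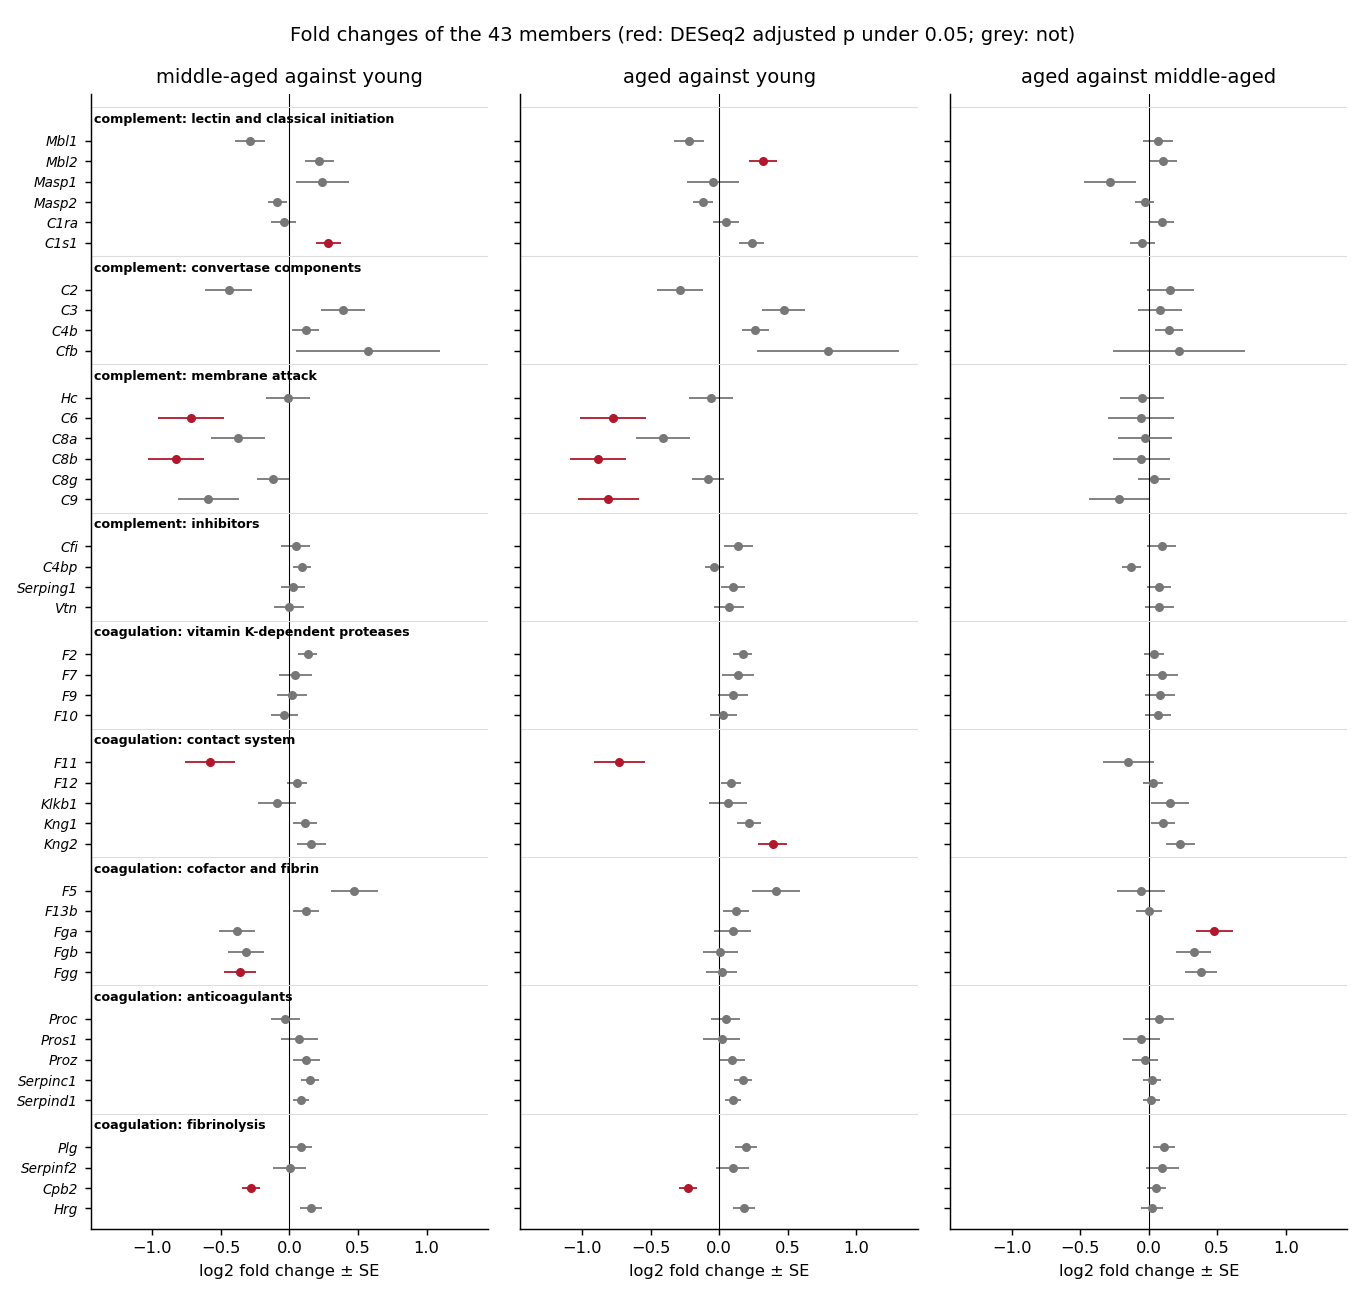
Log2 fold change with its SE for each member, by role, in 3 comparisons of ages, with members at a DESeq2 adjusted p under 0.05 in red. C6, C8b, C9 and F11 lie furthest to the left at both older ages, and the 3 fibrinogen chains lie left of 0 at 12 months and near 0 at 18 months.

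Genes of the membrane attack complex were lower with age in part. All 6 members had a log2 fold change below 0 against young at both older ages, 3 of 6 were called lower in aged livers (background 1.71%) and 2 of 6 in middle-aged livers (background 2.90%). The liver is bulk tissue, so fewer hepatocytes and less RNA per hepatocyte cannot be told apart.

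C8b encodes the beta chain of C8, the chain through which C8 joins the growing complex (chromosome 4, 104766317 to 104804548). Its normalised counts were 5885, 6064, 5076 and 3841 in young livers, 3179, 2514, 3302 and 2751 in middle-aged livers and 3263, 3689, 1704 and 2651 in aged livers. Every older liver lay below every young liver. Aged livers had 0.542 times the young level (log2 fold change -0.88, SE 0.21, DESeq2 adjusted p = 0.0021; edgeR adjusted p = 0.0496). Middle-aged livers had 0.563 times the young level (-0.83, SE 0.21, DESeq2 adjusted p = 0.0037; edgeR adjusted p = 0.0493).

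C6, which joins C5b as the first step of pore assembly (chromosome 15, 4727175 to 4814967), had normalised counts of 3364, 3111, 2858 and 2897 in young livers, 1559.8, 2001, 2032 and 1845 in middle-aged livers and 2618, 2328, 1019 and 1184 in aged livers. Neither older group overlapped the young livers, and the aged livers formed a high and a low pair. The aged level was 0.585 times the young one (log2 fold change -0.77, SE 0.24, DESeq2 adjusted p = 0.0422; edgeR adjusted p = 0.123). The middle-aged level was 0.608 times the young one (-0.72, SE 0.24, DESeq2 adjusted p = 0.0487; edgeR adjusted p = 0.114). With single livers left out, C6 kept its call in 3 of 12 fits at 18 months and in 4 of 12 at 12 months.

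C9, the subunit that polymerises to line the pore (chromosome 15, 6445327 to 6498751), had normalised counts of 9789, 10375, 8894 and 7543 in young, 5803, 5682, 7554 and 5219.7 in middle-aged and 7185, 6645, 3306 and 3756 in aged livers. Aged livers did not overlap young ones, while middle-aged replicate 3 reached just above young replicate 4. The aged level was 0.571 times the young one (log2 fold change -0.81, SE 0.22, DESeq2 adjusted p = 0.0147; edgeR adjusted p = 0.0893). The middle-aged level was 0.663 times the young one and was not called (DESeq2 adjusted p = 0.0824).

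The other 3 genes of the complex passed no test. C8a, the alpha chain of C8, had a log2 fold change of -0.41 (SE 0.20) in aged and -0.38 (SE 0.20) in middle-aged livers, with DESeq2 adjusted p of 0.273 and 0.243. C8g, which encodes the gamma chain, a lipocalin that is bound to C8 but is no pore-forming subunit, had -0.082 and -0.12, and Hc, which encodes C5, had -0.059 and -0.012.

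**Figure D3:**
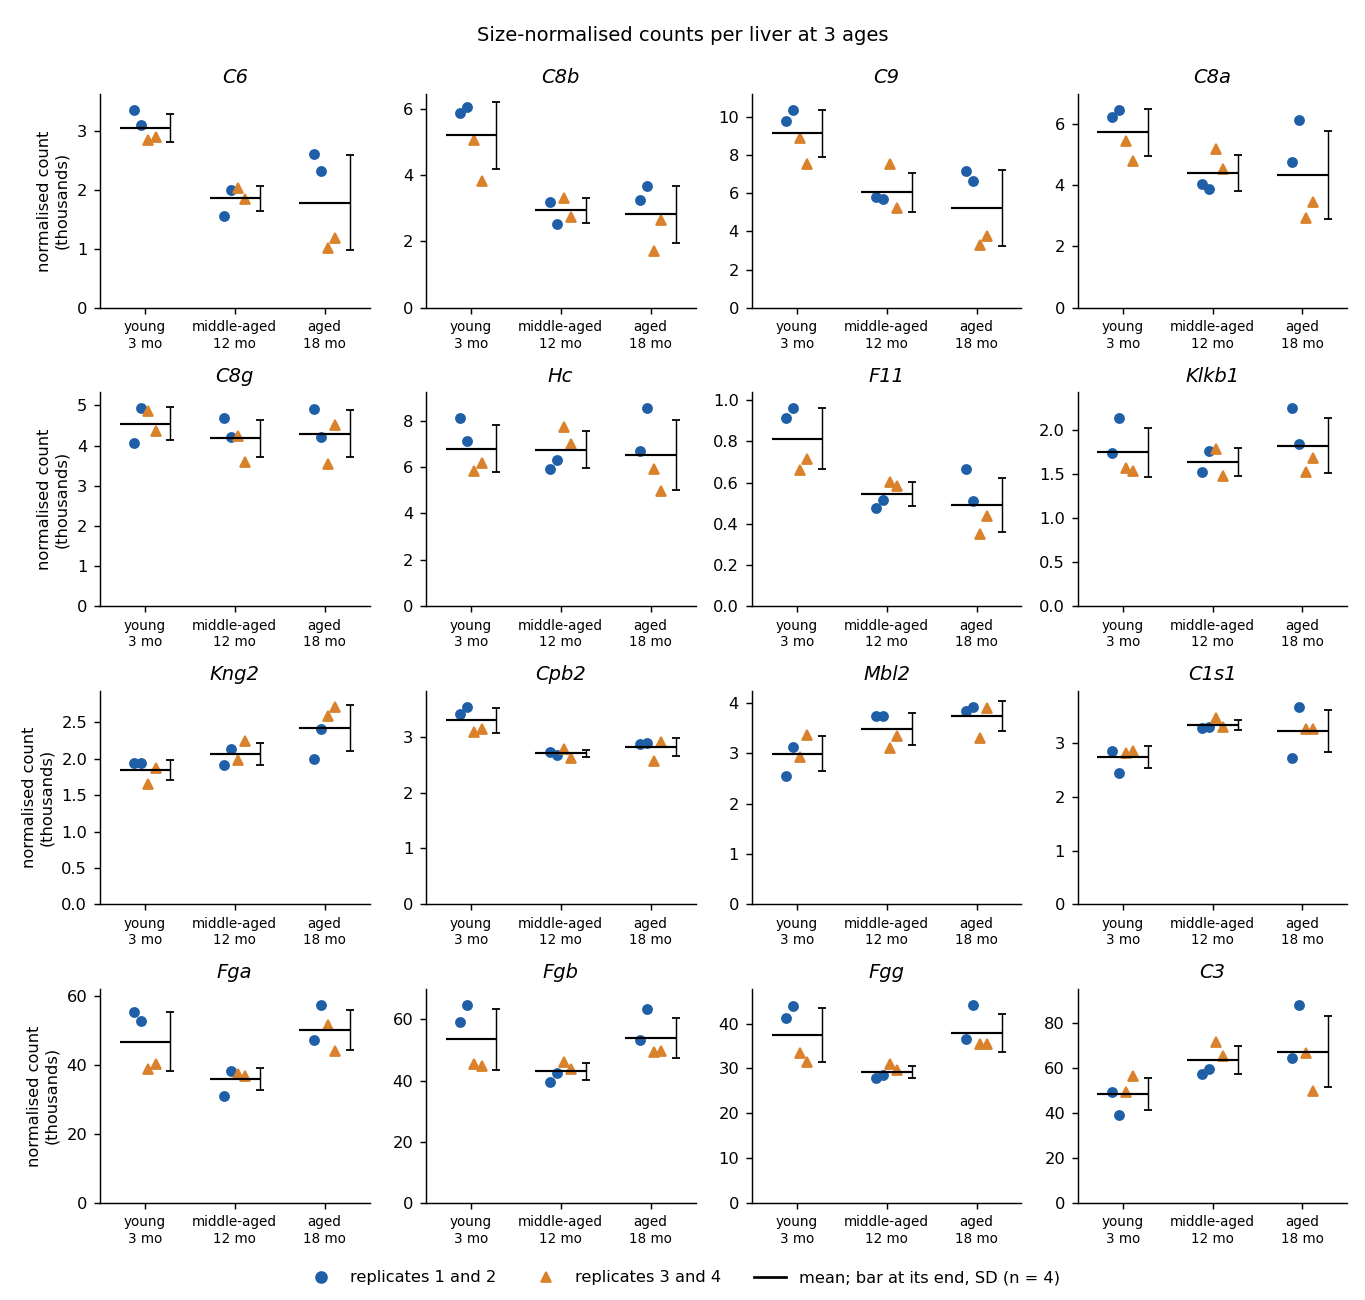
Size-normalised counts (axes from 0) of 16 members in each liver at 3, 12 and 18 months, with replicates 1 and 2 as circles, replicates 3 and 4 as triangles, lines at the mean and bars for the SD of 4 livers. In aged livers C6 and C9 separate into a higher pair (replicates 1 and 2) and a lower pair (replicates 3 and 4). The means of the fibrinogen chains are lowest at 12 months.

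The pairs within ages matched a split of the spike-in profiles, and no label says what this split is. The synthetic spike-in transcripts of the libraries fell into 2 profiles, 1 in replicates 1 and 2 and the other in replicates 3 and 4 of every age, with a correlation over 31 spike-ins of at least 0.9968 within and at most 0.9252 between the profiles. For C6 the log2 fold change between aged and young was -0.39 in replicates 1 and 2 and -1.39 in replicates 3 and 4, and the difference between these 2 values was called by a DESeq2 interaction test (-1.0, adjusted p = 8.09e-04). It was the single member called in that comparison (background 0.732%), with 7 members at an unadjusted p under 0.05. For C9 the values were -0.54 and -1.22 (interaction adjusted p = 0.217) and for C8b -0.78 and -1.04 (0.9995).

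Between middle-aged and young livers 0 of the 43 fold changes differed between the spike-in sets by DESeq2 (background 0.423%), with 7 at an unadjusted p under 0.05. Between aged and middle-aged livers 4 differed (background 0.996%), with 12 at an unadjusted p under 0.05. The 4 were all members of the membrane attack complex. The 12 included genes outside it, such as F11, with a difference of -0.83 (DESeq2 interaction test, adjusted p = 0.0667). The log2 fold changes in replicates 1 and 2 and in replicates 3 and 4 were 0.48 and -0.81 for C6, 0.46 and -0.60 for C8a, 0.27 and -0.85 for C9 and 0.32 and -0.43 for Hc. Thus 4 genes of the pore had higher values at 18 than at 12 months in the first set of libraries and lower values in the second. Whether the sets differ in the animals, the day or the preparation was not tested.

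The ratios of the C8 chains were lower in older livers for C8b, although no ratio passed after adjustment. With 4 livers per age a ratio could pass only if most of the 18 tests reached the smallest possible p, so the adjustment cannot decide this. C8b also had the lowest log2 fold change of the 43 genes at both older ages, and its ratios were added after the values were seen. A lower ratio to partners that changed less follows from that choice, so the p of its ratios is a description only. Within a liver, the ratio of C8b to C8a counts was 0.944, 0.939, 0.932 and 0.802 in young livers, 0.786, 0.648, 0.637 and 0.606 in middle-aged livers and 0.685, 0.601, 0.583 and 0.767 in aged livers. No older liver reached the lowest young ratio. The difference in mean log2 ratio was -0.46 for aged and -0.44 for middle-aged against young, each with a two-sided exact permutation p of 0.0286, the smallest that 70 assignments allow, and 0.129 after adjustment over 18 ratio tests. It was -0.55 in replicates 1 and 2 and -0.37 in replicates 3 and 4 for aged against young. The ratio of C8b to C8g was 1.15 ± 0.25 (SD, n = 4) at 3 months, 0.706 ± 0.085 at 12 months and 0.652 ± 0.166 at 18 months (exact permutation p = 0.0286 for each, 0.129 adjusted). C8a and C8b lie 11.1 kb apart on chromosome 4, facing each other on opposite strands, with no protein-coding gene between them, and C8g is on chromosome 2.

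Across the 12 livers C8a and C8b correlated with r = 0.90 and rho = 0.95 on the log2 scale (permutation p = 6e-05 and 4e-05, adjusted over 6 pairs 9e-05 and 8e-05), and r was 0.84 without the 2 livers farthest from the median of C8a. Within replicates 1 and 2 it was 0.87 and within replicates 3 and 4 it was 0.90. C8g followed neither partner to that degree, with r = 0.38 for C8a (permutation p = 0.219) and 0.56 for C8b (p = 0.0598). These values pool the 3 ages.

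The lectin and classical pathways are started by the mannose-binding lectins, Mbl1 and Mbl2, and by the proteases Masp1, Masp2, C1ra and C1s1. Of these 6 genes 1 was called in each comparison with young livers, both upward. Mbl2 was 2538, 3120.3, 2933 and 3355 in young, 3728, 3734, 3093 and 3349.5 in middle-aged and 3828, 3925, 3299 and 3888 in aged livers. Aged replicate 3 lay below the highest young liver, so the groups overlapped. Aged livers had 1.25 times the young level (log2 fold change 0.32, SE 0.10, DESeq2 adjusted p = 0.0496; edgeR adjusted p = 0.145).

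C1s1, a protease of the C1 complex, was 2859.6, 2443, 2816 and 2860.5 in young, 3286, 3311, 3476 and 3301 in middle-aged and 2729, 3682, 3267 and 3267 in aged livers. All middle-aged livers lay above all young ones, at 1.22 times their level (log2 fold change 0.28, SE 0.09, DESeq2 adjusted p = 0.0392; edgeR adjusted p = 0.122). About 21.9% of the 50-base stretches of C1s1 transcripts also occur in its copy C1s2, and 50.8% of those of C1ra occur in other genes, mainly C1rb, so their values could shift with the counting; C1rb and C1s2 themselves had at most 3 counts in every liver. The paralogous lectin Mbl1 had log2 fold changes of -0.22 in aged and -0.29 in middle-aged livers, opposite in sign to Mbl2, and was not called (DESeq2 adjusted p = 0.288 and 0.0825). Masp1, Masp2 and C1ra lay between -0.12 and 0.24 against young, and 54.9% of the exons of Masp2 overlap Tardbp on the opposite strand.

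Of the 4 convertase genes none was called by DESeq2 or edgeR, with 2 of the 4 at an unadjusted p under 0.05 in DESeq2 between aged and young. C3 was 49258, 39148, 49604 and 56523 in young, 57483, 59714, 71822 and 65667 in middle-aged and 64544, 88264, 66829 and 49826 in aged livers. Middle-aged livers lay above all young ones, whereas aged replicate 4 lay within the young range. The log2 fold change was 0.47 (SE 0.16, DESeq2 adjusted p = 0.0725) in aged and 0.39 (SE 0.16, adjusted p = 0.119) in middle-aged livers. C4b, the C4 of the classical and lectin convertases, had 0.26 and 0.12, and 34.6% of its 50-base stretches occur in C4a. C2 had -0.28 and -0.44 (DESeq2 adjusted p = 0.433 and 0.0926), and Cfb, near the floor, was 10.6, 2.5, 9.5 and 5.9 in young, 10.9, 10.8, 6.2 and 15.0 in middle-aged and 8.0, 10.6, 15.7 and 15.2 in aged livers.

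The complement inhibitors Cfi (factor I, which cuts C3b and C4b), C4bp (C4b-binding protein), Serping1 (C1 inhibitor) and Vtn were not called in any comparison by DESeq2 or edgeR, and none had an unadjusted DESeq2 p under 0.05. Their log2 fold changes lay between -0.036 and 0.14 for aged and between -0.0035 and 0.091 for middle-aged against young.

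In coagulation, the gene with the largest difference was F11 (chromosome 8, 45241174 to 45262031), whose product is activated in the contact phase and by thrombin and then activates factor IX. Its normalised counts were 916, 962, 662 and 717 in young, 478, 514, 601 and 584 in middle-aged and 665, 512, 351 and 437 in aged livers. Middle-aged livers all lay below young ones, and aged replicate 1 lay just above young replicate 3. The aged level was 0.603 times the young one (log2 fold change -0.73, SE 0.19, DESeq2 adjusted p = 0.0059; edgeR adjusted p = 0.0576). The middle-aged level was 0.669 times the young one (-0.58, SE 0.19, DESeq2 adjusted p = 0.0342; edgeR adjusted p = 0.0896). At 12 months the fall was -0.92 in replicates 1 and 2 and -0.23 in replicates 3 and 4.

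F11 has an adjacent paralogue, Klkb1 (plasma prekallikrein), 4.7 kb away on the same strand. Klkb1 had log2 fold changes of 0.063 in aged and -0.091 in middle-aged livers (DESeq2 adjusted p = 0.897 and 0.767). Of the exons of Klkb1 43.2% are shared with the gene Gm45753.

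The contact system also holds F12 (factor XII) and the kininogens Kng1 and Kng2, the precursors of bradykinin. Kng2 was 1942, 1945, 1653 and 1869.5 in young, 1914, 2135, 1985 and 2246 in middle-aged and 1995, 2409, 2588 and 2718 in aged livers. All aged livers lay above all young ones, and aged replicate 1 only narrowly. Kng2 rose to 1.31 times the young level (log2 fold change 0.39, SE 0.10, DESeq2 adjusted p = 0.0108; edgeR adjusted p = 0.0812), with 0.18 in replicates 1 and 2 and 0.59 in replicates 3 and 4. Kng1, which lies 28.4 kb away and shares 17.2% of its 50-base stretches with Kng2, also had no overlap between aged and young livers, with 0.22 (DESeq2 adjusted p = 0.167). F12 had 0.086 and 0.057 in aged and middle-aged livers.

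The fibrinogen chains followed one another. Fga was 55362, 52897, 38796 and 40206 in young, 31109, 38406, 37461 and 36762 in middle-aged and 47233, 57466, 51658 and 44062 in aged livers. Fgb was 59271, 64756, 45514 and 44750.1 in young, 39626, 42418, 46195 and 43709.7 in middle-aged and 53236, 63534, 49423 and 49570.0 in aged livers. Fgg was 41218, 43935, 33363 and 31423 in young, 27738, 28422, 30882 and 29706 in middle-aged and 36636, 44168, 35436 and 35537 in aged livers. For each chain every aged liver lay above every middle-aged liver, and the young livers split into a high pair, replicates 1 and 2, and a lower pair, replicates 3 and 4, that lay close to the middle-aged livers.

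Against young livers, Fgg fell to 0.779 times at 12 months (log2 fold change -0.36, SE 0.12, DESeq2 adjusted p = 0.0357; edgeR adjusted p = 0.120), while Fga had -0.38 (SE 0.13, adjusted p = 0.0572) and Fgb -0.32 (SE 0.13, adjusted p = 0.119). The value for Fgg was -0.60 in replicates 1 and 2 and -0.11 in replicates 3 and 4, and for Fga -0.64 and -0.10. For Fgb it was -0.59 and -0.0155, and this difference between the sets was not called (DESeq2 interaction test, adjusted p = 0.0586). Between 12 and 18 months Fga rose to 1.39 times the middle-aged level (log2 fold change 0.48, SE 0.13, DESeq2 adjusted p = 0.0344; edgeR adjusted p = 0.233), with 0.59 and 0.37 in the 2 spike-in sets. Fgg had 0.38 (SE 0.12, adjusted p = 0.0734) and Fgb 0.33 (SE 0.13, adjusted p = 0.273). Between aged and young livers the log2 fold change was at most 0.10 for any chain, with DESeq2 adjusted p of at least 0.801. Across the 3 ages Fga and Fgg were called (DESeq2 likelihood ratio test, adjusted p = 0.0184 and 0.0259) and Fgb was not (0.140).

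The 3 chains lie side by side on chromosome 3, Fgg and Fga 11026 bases apart and Fga and Fgb 6513 bases apart. Across 12 livers the correlation was r = 0.98 and rho = 0.97 for Fgb and Fgg (permutation p = 1e-05 for each, the smallest that the resamples drawn can give; adjusted over 6 pairs 3e-05 and 6e-05). It was r = 0.93 and rho = 0.94 for Fga and Fgg (p = 1e-05 and 4e-05) and r = 0.92 and rho = 0.90 for Fga and Fgb (p = 3e-05 and 0.00012). Leaving out the 2 livers farthest from the median of the first gene gave r between 0.88 and 0.97, and r within a spike-in set was between 0.84 and 0.997. The ratio of Fgg to Fgb was 0.702 ± 0.023 (SD, n = 4) at 3 months, 0.680 ± 0.015 at 12 months and 0.704 ± 0.015 at 18 months, and none of the 9 comparisons of fibrinogen ratios passed an exact permutation test (unadjusted p from 0.0857 to 0.914).

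**Figure D4:**
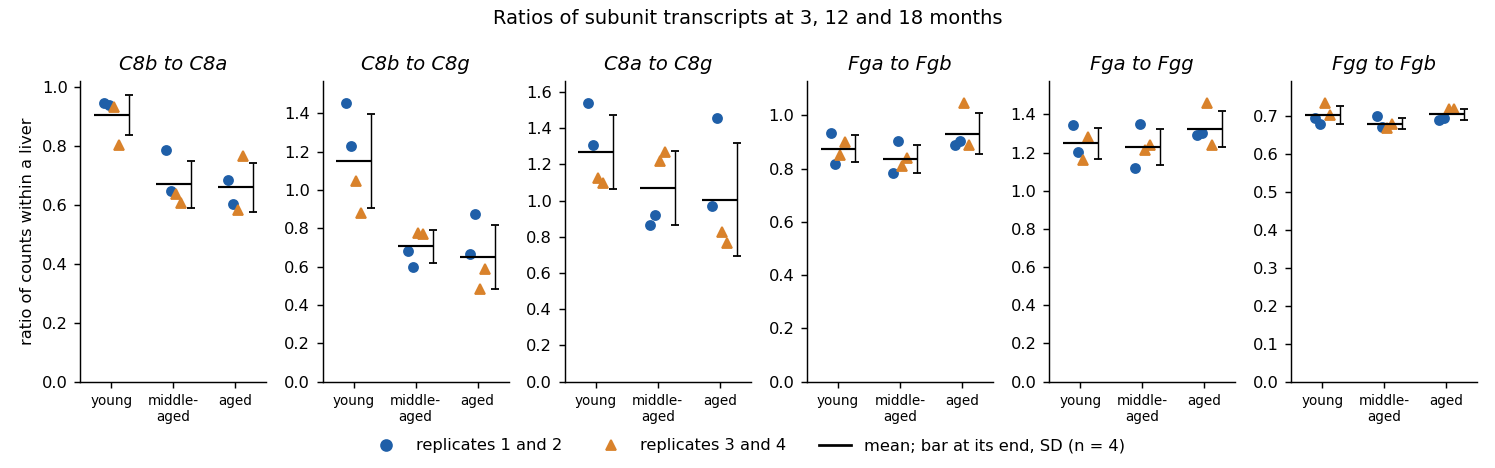
Ratios of counts within a liver for the C8 chains and the fibrinogen chains at 3, 12 and 18 months, with symbols as in the plot of normalised counts. The ratios of C8b to its partners lie lower in every older liver than in every young liver, while the ratio of Fgg to Fgb stays between 0.669 and 0.733.

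F5, the cofactor of factor Xa, had log2 fold changes of 0.42 in aged and 0.47 in middle-aged livers (DESeq2 adjusted p = 0.178 and 0.0743), and F13b, the carrier subunit of factor XIII, had 0.12 at both ages. Neither was called. The vitamin K-dependent clotting proteases F2 (prothrombin), F7, F9 and F10 were not called in any comparison by DESeq2 or edgeR, with 1 at an unadjusted p under 0.05. They lay between -0.037 and 0.17 against young. F2 was 14881, 13554, 14756 and 15757 in young, 16374, 16939.8, 16162 and 15200.0 in middle-aged and 16363, 18285, 15567 and 16191 in aged livers, with overlap between all ages. Its log2 fold change was 0.17 (SE 0.07, DESeq2 adjusted p = 0.166) in aged and 0.13 (SE 0.07, adjusted p = 0.25) in middle-aged livers. F7, F10 and the anticoagulant gene Proz lie in a row on chromosome 8, separated by 1.5 and 4.2 kb, and none of the 3 was called.

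Of the 5 anticoagulant genes none was called by DESeq2 or edgeR, with 1 at an unadjusted p under 0.05. Serpinc1, which encodes antithrombin, was 19674, 18057, 19483 and 19438 in young, 21823, 22125, 20595 and 20631 in middle-aged and 20728, 23431, 19890.0 and 22636 in aged livers. Both older groups lay wholly above the young livers. The log2 fold change was 0.18 (SE 0.07, DESeq2 adjusted p = 0.107) in aged and 0.15 (SE 0.07, adjusted p = 0.141) in middle-aged livers, and 34.4% of its exonic bases overlap Zbtb37 on the opposite strand. Proc (protein C), Pros1, Proz (protein Z) and Serpind1 lay between -0.030 and 0.12 against young.

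In fibrinolysis, Cpb2, which encodes the carboxypeptidase TAFI that shields fibrin from plasmin, was 3401, 3538, 3081 and 3137 in young, 2733, 2670.1, 2778 and 2627 in middle-aged and 2874, 2889.7, 2567 and 2904 in aged livers. Every older liver lay below every young one. It fell to 0.822 times the young level at 12 months (log2 fold change -0.28, SE 0.07, DESeq2 adjusted p = 0.0017; edgeR adjusted p = 0.0731) and to 0.854 times at 18 months (-0.23, SE 0.07, DESeq2 adjusted p = 0.0252; edgeR adjusted p = 0.159). Plg (plasminogen), Serpinf2 (its product inhibits plasmin) and Hrg (histidine-rich glycoprotein, which binds plasminogen) were not called, with log2 fold changes of 0.20, 0.10 and 0.18 in aged livers. Hrg is followed on chromosome 16 by Kng2 (24.2 kb) and Kng1.

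Calls among other genes of the same pathways are set against the shares over all genes, 3.58% for aged and 6.41% for middle-aged against young. Of 26 complement genes outside the 43, 22 were tested between aged and young and 0 were called by DESeq2 or edgeR, with 3 at an unadjusted p under 0.05, and between middle-aged and young 1 of 18 was called by DESeq2, C4a (-0.58; edgeR adjusted p = 0.0753). Of 23 further coagulation genes 0 of 20 and 0 of 15 were called against young by DESeq2 or edgeR, with 1 and 4 at an unadjusted p under 0.05, and between aged and middle-aged livers Mcfd2, which serves the export of factors V and VIII, was called by DESeq2 (0.20; edgeR adjusted p = 0.363). None of 5 vitamin K cycle genes was called by either tool, with 0 at an unadjusted p under 0.05.

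Among 15 hepatocyte transcription factors 0 were called between aged and young by DESeq2 or edgeR, with 7 at an unadjusted p under 0.05. Between middle-aged and young Cebpd was lower (-0.90) and Ppara (0.76), Nr5a2 (0.45) and Esr1 (0.71) were higher by DESeq2, of which edgeR called Esr1 alone. Of 13 other acute phase genes, 4 were called lower at 12 months, Saa1 (-2.97), Saa2 (-2.90), Orm1 (-0.61) and Apcs (-0.58), of which edgeR called Saa1 alone. At 18 months Orm1 (-0.66) and Orm2 (-1.19) were lower and Itih4 (0.52) was higher than in young livers by DESeq2, with edgeR adjusted p between 0.0683 and 0.110.

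Clock genes also moved with the ages. Of 15 genes of the circadian clock, 6 of 14 tested were called between middle-aged and young livers, with Dbp (1.95), Per3 (1.51), Tef (0.91), Nr1d2 (0.66) and Cry2 (0.59) higher and Nfil3 (-1.01) lower, and edgeR called 4 of them (Dbp, Per3, Tef and Nfil3). At 18 against 12 months 8 of 13 were called, with Dbp (-2.78), Per3 (-2.31), Tef (-1.27), Nr1d2 (-1.05) and Cry2 (-0.62) lower and Arntl (1.56), Nfil3 (1.53) and Cry1 (1.15) higher, and edgeR called 5 of them (Dbp, Per3, Tef, Nr1d2 and Nfil3). Between aged and young livers 1 of 15 was called by DESeq2 (Cry1, 0.91; edgeR adjusted p = 0.0629). The part of clock phase, of the acute phase response or of the mitochondrial share in the values of the 43 genes was not tested. Among markers of other liver cells, 1 of 11 Kupffer cell genes (Marco, 2.46), 1 of 9 stellate cell and fibroblast genes (Ecm1, 0.57) and 1 of 5 tested cholangiocyte genes (Sox9, 0.86) were called, all higher in aged than in young livers by DESeq2, and edgeR called Ecm1 alone. Further, 0 of 9 hepatocyte and 0 of 9 sinusoidal endothelial genes were called by DESeq2 or edgeR, with 3 and 0 at an unadjusted p under 0.05. Sox9 was also called at 18 against 12 months (0.95; edgeR adjusted p = 0.148). Of 5 tested lymphocyte and 3 tested platelet genes 0 were called by either tool, with 1 and 0 at an unadjusted p under 0.05. Kupffer cell markers summed to between 397.9 and 656.7 CPM in young, 369.6 and 525.8 CPM in middle-aged and 465.6 and 725.4 CPM in aged livers. Stellate cell markers ranged from 189.5 to 428.3, from 302.7 to 537.8 and from 294.1 to 485.3 CPM, and cholangiocyte markers from 28.2 to 36.4, from 13 to 49.0 and from 24.3 to 47.6 CPM in the same order. All these ranges overlapped between ages, and their part in the values of the 43 genes was not tested.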

How the data were processed

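RNA-seq of 12 mouse livers was analysed. Per the submitters' processing notes, reads were aligned with STAR 2.5.2b to mm10/GRCm38 and handled with SAMtools 1.9, and featureCounts, R 3.6.3, edgeR 3.28.1 and DESeq2 1.26.0 are also named. The deposited values are raw counts per gene, not normalised, that the authors made. The study's methods name a directional library kit for young and old livers, and whether it was used for these 12 livers is uncertain. The table lists 53465 genes, and its 92 spike-ins were kept out of library sizes.

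Tests across genes followed the study's stated choice of DESeq2 (here version 1.42.0, R 4.3.3) at a 5% false discovery rate, with age as the only term, over 28449 genes with at least 1 count. Normalised counts are counts divided by DESeq2 size factors. Contrasts used Wald tests and the 3 ages together a likelihood ratio test. An adjusted p missing after independent filtering stayed missing. edgeR 4.0.16 (quasi-likelihood, TMM, filterByExpr), limma 3.58.1 (voom with quality weights), TMM factors, other filters, a replicate block, the spike-in set, the ages compared alone and single livers left out were alternatives. The edgeR filter and the tests of set differences and of subunit ratios were added after the data were seen. The tests were checked on simulated data.

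The 43 members, the other lists and the rule for named genes (every member, with full values for up to 12 called in any test and for Fga, Fgb, Fgg, C3, F2 and Serpinc1; other lists by counts and called genes) were chosen with earlier results of these data known. The values of Cfb and the ratios of the C8 chains were added after they were seen. Exon lengths and overlaps came from the GENCODE M21 annotation, and 197 of 198 list genes were matched. The sample titles give an age group and a number, and each liver was taken as 1 animal. Replicates were compared by a chi-square test over 8922 genes, which gave at least 11.2 per gene. Same-numbered livers did not deviate together (correlations from -0.303 to 0.159), so the numbers were not taken as pairs. The design text gives 3 replicates per age, whereas the labels give 4.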

Additional observations from a re-analysis of the deposited data

Results flagged for a closer look

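Of 129 groups of 4 livers (43 genes at 3 ages), 10 held a liver whose gap to the next passed Dixon's critical share of the group's range, which chance alone exceeds in about 1 in 20 groups. In young replicate 2, C1s1 (2442.8 normalised counts) and Serpinc1 (18057.0) lay below the other 3 livers. This liver also had the largest mitochondrial share. In middle-aged livers, Mbl1 was high in replicate 1 (2404.8), C1s1 in replicate 3 (3475.5) and Plg in replicate 2 (22613.9). In aged livers, C4bp (5386.5) and Fgg (44167.6) were high in replicate 2, Mbl2 (3299.0) and Cpb2 (2566.6) were low in replicate 3, and Masp1 was low in replicate 1 (329.2).

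Age differences called as unlike in the 2 spike-in sets, by a DESeq2 interaction test, were all in genes of the membrane attack complex. The log2 fold change in replicates 3 and 4 minus that in replicates 1 and 2 was -1.0 for C6 between aged and young (adjusted p = 8.09e-04). Between aged and middle-aged livers it was -1.29 for C6 (adjusted p = 5.67e-07), -1.12 for C9 (5.34e-04), -1.07 for C8a (1.98e-04) and -0.76 for Hc (0.0314). F11, outside the complex, had -0.83 there and was not called (0.0667). In that comparison 12 of the 43 genes had an unadjusted p under 0.05. What else differs between the sets was not tested.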

How the results depend on the processing

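All 308 values of the 14 called fold changes under the alternatives kept their direction, and 182 of them stayed past the threshold. The number of members called moved more. Against 7, 6, 1 and 8 (aged against young, middle-aged against young, aged against middle-aged, across ages), edgeR called 1, 1, 0 and 1 and voom 5, 1, 0 and 4. Without independent filtering the 3 comparisons gave 4, 2 and 0, and with only the 2 ages compared 3, 13 and 2. The replicate block gave 3 for middle-aged against young and 5 across ages. The spike-in set as a covariate gave 2 between aged and middle-aged. Within replicates 1 and 2 the counts were 3 for aged against young and 0 for aged against middle-aged, and within replicates 3 and 4 they were 2 for middle-aged against young and 5 for aged against middle-aged. In these last comparisons complement minus coagulation was 0.15 and -0.13. Leaving out single livers gave 2 to 10, 2 to 10, 0 to 2 and 5 to 11 calls, and complement minus coagulation from -0.15 to -0.075, -0.11 to -0.018 and -0.062 to 0.022. For aged against young, 2 calls were left without young replicate 2, 3 without young replicate 1 or aged replicate 3 and 4 without young replicate 3, middle-aged replicate 2 or aged replicate 4. For middle-aged against young, 2 were left without young replicate 2 or middle-aged replicate 2 or 3, 3 without middle-aged replicate 1 or 4, and 10 were made without aged replicate 1. Between aged and middle-aged none were left by DESeq2 without any 1 middle-aged liver or aged replicate 2 or 3, and 2 were made without young replicate 2 or 4 or aged replicate 1. Across ages 5 were left without young replicate 2 or middle-aged replicate 1 or 4, and up to 11 were made otherwise. The call of F11 at 18 months was lost without young replicate 2, that of C9 without young replicate 1 or 2 or aged replicate 3 or 4, and that of Kng2 without young replicate 3 or aged replicate 3 or 4. At 18 months C6 kept its call in 3 of 12 such fits (without middle-aged replicate 1 or aged replicate 1 or 2), Mbl2 in 3 (without young replicate 4, middle-aged replicate 3 or aged replicate 3) and Cpb2 in 5 (without young replicate 3 or 4, middle-aged replicate 3 or 4 or aged replicate 1). At 12 months C1s1 kept its call in 3 (without young replicate 1 or aged replicate 1 or 2), C6 in 4, lost without any young or middle-aged liver, and F11 and Fgg in 6, lost without young replicate 1 or 2 or any middle-aged liver. Between 12 and 18 months Fga kept its call in 6, lost without any middle-aged liver or aged replicate 2 or 3. C8b at both ages and Cpb2 at 12 months kept theirs in 12, though voom did not call C8b at 12 months (adjusted p = 0.0724). Without mitochondrial counts, young and middle-aged shares were 4.60 and 4.58% for all members, 1.60 and 1.74% for complement and 3.00 and 2.84% for coagulation. The cause of these shifts was not tested. The planned edgeR test without a filter was dropped and replaced by the filtered one, because its prior degrees of freedom were infinite and many of its calls on simulated data were false. Depth limits Cfb alone among the members, with at most 18 counts.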
